A study of Mus musculus with 36 samples.

Results

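The genes described here make, break down, export and sense sphingosine-1-phosphate (S1P). They are the sphingosine kinases Sphk1 and Sphk2, the S1P lyase Sgpl1, the phosphatases Sgpp1 and Plpp3, the transporter Spns2 and the receptors S1pr1, S1pr2 and S1pr3. They were chosen by name as the rows of these symbols in the count table, and make up 9 of its 55487 genes. Earlier results of these data were known when they were chosen. The shares of all genes printed beside their counts do not allow for that choice. All 9 passed the filter on low counts and were among the 15489 genes tested.

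S1P is a bioactive lipid made when a sphingosine kinase phosphorylates sphingosine, itself a product of ceramide breakdown. The lyase Sgpl1 destroys it irreversibly in the endoplasmic reticulum, whereas Sgpp1, also of the endoplasmic reticulum, and Plpp3, whose active site faces the outside of the cell, remove its phosphate. Spns2 carries S1P out of the cell, where it acts on G protein-coupled receptors. In fibroblasts these receptors are known for their control of migration, cytoskeletal tension and growth, with S1pr1 coupled to Gi and S1pr2 and S1pr3 coupled to several classes of G protein.

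RNA-seq was performed on 36 libraries of primary mouse embryonic fibroblasts (MEFs), treated for 5 h with solvent (vehicle) or with 1 µM dexamethasone (Dex), a synthetic glucocorticoid that activates the glucocorticoid receptor (GR). The MEFs came from midgestation embryos freed of head and organs, and each genotype was represented by 3 cultures in a run, which the methods describe as coming from different mice. GRD/D cells carry A465T in the DNA-binding domain of GR, GRL/L cells carry I634A in its ligand-binding domain, and GRD+L/D+L cells carry both. GRko/ko cells are homozygous for a GR knockout allele. Run 1 held GRwt/wt replicates 1 to 3, GRD/D, GRD+L/D+L and GRko/ko, and run 2 held GRwt/wt replicates 4 to 6 and GRL/L, each with 3 vehicle and 3 Dex libraries. The alleles were carried by the embryos themselves and so were present throughout development. All libraries are labelled FVB/NJ, but the GR+/− mice intercrossed for GRko/ko were 129 Sv according to the methods. Each mutant was compared with GRwt/wt of its own run, which leaves strain and genotype impossible to tell apart for GRko/ko.

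Promoter windows of RefSeq (GRCm38.p6), from 250 bases before to 50 bases after an annotated start, were found for 8 of the 9 genes, and none was found for S1pr1. The windows of Sphk1 and Plpp3 are shown because these were the synthesis and the dephosphorylation gene with the largest Dex changes, a choice made after their values were seen. Both are on the plus strand, the Sphk1 window at chr11:116530850-116531149 and the Plpp3 window at chr4:105157097-105157396. In Plpp3 the capitals mark the only match, with up to 1 mismatch, to the palindromic GR element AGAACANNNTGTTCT in any window of these genes, read AGAACAACTTTTTCT and placed 195 bases before the start. In Sphk1 the capitals mark the TATA box motif TATAAA, 31 bases before the most upstream of its 5 starts in RefSeq. In GENCODE M21, used for exon lengths, Sphk1 begins upstream of this motif, at base 116530925.
Sphk1: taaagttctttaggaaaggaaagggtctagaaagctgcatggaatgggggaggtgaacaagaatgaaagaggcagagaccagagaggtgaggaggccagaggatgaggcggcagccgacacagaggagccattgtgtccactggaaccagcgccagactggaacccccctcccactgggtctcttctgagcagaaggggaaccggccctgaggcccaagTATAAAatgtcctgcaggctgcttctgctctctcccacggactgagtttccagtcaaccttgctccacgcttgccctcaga
Plpp3: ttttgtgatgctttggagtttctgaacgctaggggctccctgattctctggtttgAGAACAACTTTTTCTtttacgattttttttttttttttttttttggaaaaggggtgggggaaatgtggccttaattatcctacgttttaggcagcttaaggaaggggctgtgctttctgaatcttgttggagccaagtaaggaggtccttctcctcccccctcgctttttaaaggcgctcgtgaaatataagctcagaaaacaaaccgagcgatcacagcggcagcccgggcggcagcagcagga
Of all 32817 promoter windows, 0.165% held the GR element with up to 1 mismatch and 0.00914% held it exactly. The shorter motif AGAACA, on either strand (reverse complement TGTTCT), was in 19.0% of windows, and of these genes in Plpp3, as the left part of the marked match, and in Sgpp1, 81 bases before the start. None of the 5 Sphk1 windows held it. TATAAA on either strand was in 13.6% of all windows, and in 2.00% it lay on the strand of the gene with its first base 20 to 40 bases before the start. These are matches of letters within 300 bases.

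The libraries held 15280166 to 19102035 counts in run 1 and 21532686 to 28662608 in run 2. Nr3c1, which encodes GR, was at 15.9 to 20.4 CPM (the count scaled to the size of its library after TMM normalization) in the 6 GRko/ko libraries and at 47.8 CPM or more in all others. The 8 fibroblast markers summed to between 31249.7 and 50849.7 CPM. Of the 10 endothelial markers, chosen because endothelium is rich in S1pr1 and Spns2, Pecam1 was at no more than 0.638 CPM and Cldn5 at no more than 0.126 CPM in any library, whereas Flt1 was at 62.8 to 356 CPM. The endothelial sum was 155 to 367 CPM in run 1 and 76.2 to 133 CPM in run 2, and the smooth muscle and pericyte sum was 6689.6 to 8347 CPM in run 1 and 1479.5 to 2185 CPM in run 2. The 10 macrophage markers summed to 2805 to 3292 CPM in GRko/ko and to no more than 1046 CPM in any other genotype. Within run 1 they were at 30.7 to 40.8 CPM in GRD+L/D+L and at 197 to 349 CPM in GRwt/wt. The 4 cartilage markers summed to 178 to 505 CPM in GRko/ko and to no more than 30.5 CPM in the other groups of run 1. By Xist and 4 Y-linked genes, GRwt/wt of run 1 and GRD/D were female and all other groups male, so genotype and sex cannot be told apart where GRD+L/D+L or GRko/ko is set against GRwt/wt of run 1, or GRD+L/D+L against GRD/D. The part of these marker levels in the results below was not tested. In bulk RNA, fewer cells of a type and less RNA per cell cannot be told apart.

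In vehicle-treated GRwt/wt cells of run 1 the levels per kilobase of exon descended from Sgpl1 (48.3 CPM per kb, mean of n = 3) through S1pr3 (30.1), Plpp3 (26.4), S1pr1 (20.5), S1pr2 (12.2), Sphk2 (10.6), Sphk1 (10.6) and Sgpp1 (7.11) to Spns2 (0.421). Sphk2 and Sphk1 were the only neighbours in this order whose replicates overlapped. In run 2 the same genotype had S1pr3 (37.2 CPM per kb), Plpp3 (36.6) and Sgpl1 (36.6) together at the top, with overlapping replicates, and Sphk1 (2.57 CPM per kb) next to last. The vehicle level of Sphk1 in GRwt/wt was 4.11 times as high in run 1 as in run 2, and that of S1pr1 1.96 times, whereas Sgpp1 was at 0.687 and Plpp3 at 0.720 of the run 2 level. S1pr2 and Spns2 differed least between runs, with ratios of 1.04 and 1.05. Since run, embryo sex and culture changed together, these ratios have no test.

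Dex changed S1P genes in opposite directions in GRwt/wt cells: the kinase gene Sphk1 rose, and the receptor genes S1pr1 and S1pr3 and the phosphatase gene Plpp3 fell in both runs, Plpp3 in run 2 by a small change whose call depended on the fit. At an adjusted p of at most 0.05 (edgeR quasi-likelihood test, Benjamini-Hochberg), 4 of the 9 genes were called in run 1, 1 higher and 3 lower, against 13.9% of all genes tested. In run 2, 6 were called, 1 higher and 5 lower, against 31.6% of all genes. GRL/L had 5 called (1 higher, 4 lower, background 19.1%), GRD/D 4 (3 higher, 1 lower, background 11.9%) and GRD+L/D+L 2 (1 higher, 1 lower, background 5.00%). In GRko/ko no gene of the 9 was called by edgeR, none had an unadjusted p under 0.05 and DESeq2 called none, against 0% of all genes called by edgeR, 859 genes with an unadjusted p under 0.05 and 1 gene called by DESeq2. The median log2 fold change of the 9 genes was −0.10 in GRwt/wt of run 1, −0.12 in that of run 2 and 0.036 in GRko/ko, and that of all genes lay between −0.011 and −0.00027 in all 6 comparisons. The plot of Dex responses shows all 9 genes side by side.

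**Figure D1:**
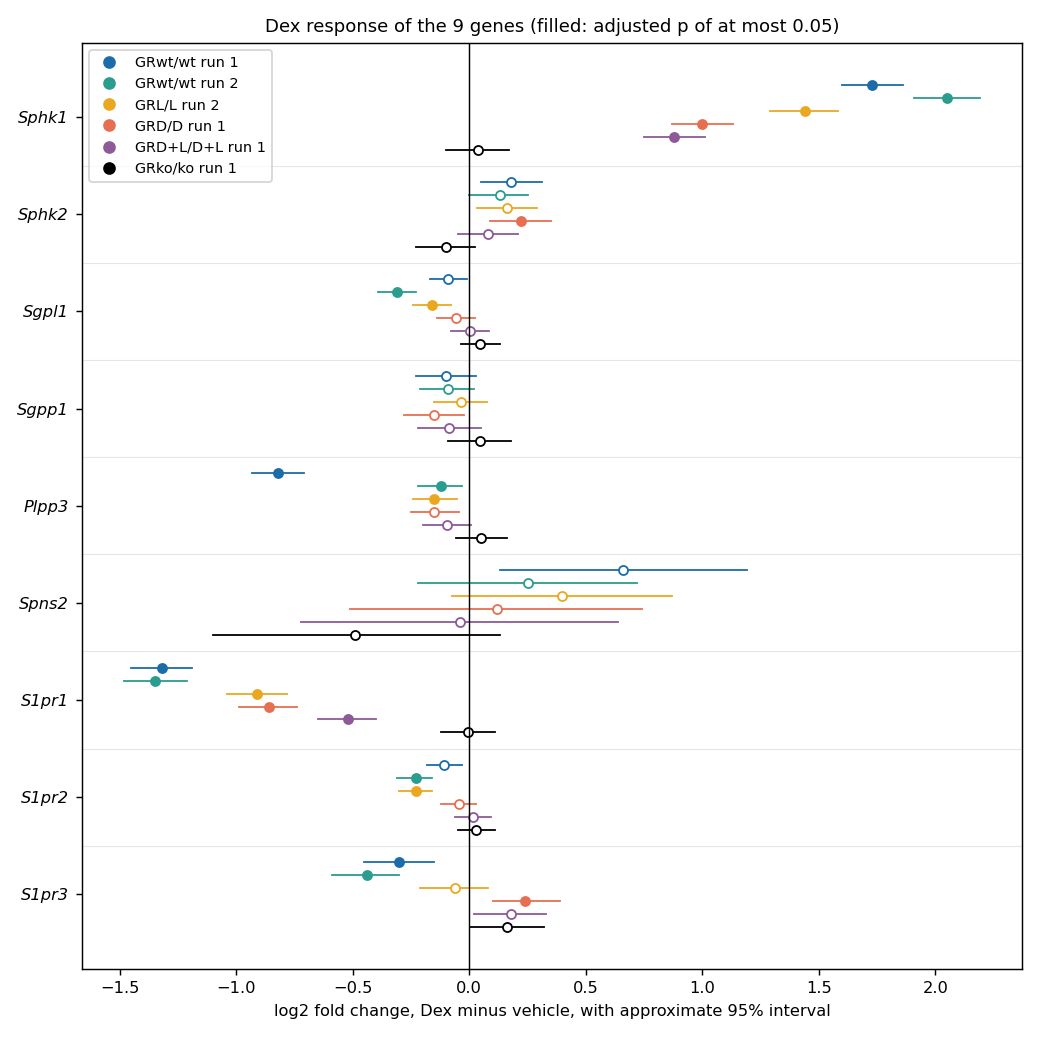
Log2 fold changes of Dex against vehicle (x axis) for each of the 9 genes (rows) in 6 combinations of genotype and run, with approximate 95% intervals. Filled points have an adjusted p of at most 0.05. Sphk1 has a filled point to the right of 0 and S1pr1 a filled point to the left in 5 of the 6, and no GRko/ko point is filled.

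Sphk1, the kinase known as the inducible one of the pair, had the largest Dex change of these genes. GRwt/wt of run 1 was at 51.3, 54.7 and 45.3 CPM with vehicle and at 171, 164 and 166 CPM with Dex. GRwt/wt of run 2 was at 12.2, 11.2 and 13.4 CPM with vehicle and at 53.6, 49.1 and 49.9 CPM with Dex. Treated and untreated libraries were far apart in both runs, and the Dex level of run 2 was about the vehicle level of run 1. The log2 fold change was 1.73 ± 0.065 (SE) in run 1, a 3.32-fold rise (adjusted p = 1.82e-21), and 2.05 ± 0.074 in run 2, a 4.14-fold rise (adjusted p = 1.04e-22).

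The point mutants kept part of the Sphk1 response. GRL/L was at 11.7, 13.0 and 12.0 CPM with vehicle and at 33.6, 34.3 and 31.7 CPM with Dex, a log2 fold change of 1.44 ± 0.075 (adjusted p = 1.31e-17). GRD/D was at 46.9, 43.1 and 41.5 CPM with vehicle and at 84.7, 96.2 and 81.8 CPM with Dex, a log2 fold change of 1.00 ± 0.067 (adjusted p = 1.32e-13). GRD+L/D+L was at 54.5, 50.5 and 53.7 CPM with vehicle and at 96.8, 96.7 and 99.1 CPM with Dex, a log2 fold change of 0.88 ± 0.066 (adjusted p = 3.85e-12). No vehicle library overlapped a Dex library in these mutants, and no mutant Dex library reached the lowest GRwt/wt Dex library of its run. GRko/ko overlapped fully, with 47.5, 47.7 and 45.6 CPM with vehicle and 51.9, 49.3 and 43.2 CPM with Dex (log2 fold change 0.036 ± 0.069, adjusted p = 0.987). As shares of the GRwt/wt log2 fold change of the same run, the Sphk1 responses were 70.2% in GRL/L, 57.8% in GRD/D, 50.9% in GRD+L/D+L and 2.07% in GRko/ko.

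The reduction itself was tested as an interaction. The Sphk1 response was lower than that of GRwt/wt by −0.61 ± 0.11 on the log2 scale in GRL/L (adjusted p = 0.000372), −0.73 ± 0.094 in GRD/D (8.68e-07), −0.85 ± 0.093 in GRD+L/D+L (2.85e-08) and −1.70 ± 0.10 in GRko/ko (7.01e-16). All 4 were called in every alternative other than a fold limit. Between GRD+L/D+L and GRD/D the difference was −0.12 ± 0.094 (adjusted p = 0.692), so the approximate 95% interval ran from −0.30 to 0.067. These genotypes also differed in embryo sex.

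Sphk2, the other sphingosine kinase, which is enriched in nucleus and mitochondria, moved little. It was at 43.3 to 45.0 CPM with vehicle and 49.9 to 50.3 CPM with Dex in GRwt/wt of run 1, groups that did not overlap, with a log2 fold change of 0.18 ± 0.067 (adjusted p = 0.0694). It was called when only these libraries were fitted (0.18, 0.0175) and with GRwt/wt of both runs pooled (0.15, 0.0102). The values were 0.13 ± 0.065 in GRwt/wt of run 2 (adjusted p = 0.138) and 0.16 ± 0.064 in GRL/L (0.0775). Sphk2 was called higher in GRD/D, from 48.9, 38.3 and 47.0 CPM to 52.7, 50.2 and 53.1 CPM (0.22 ± 0.067, adjusted p = 0.0247). That call was lost when only the GRD/D libraries were fitted (0.22, adjusted p = 0.194) or without GRD/D Dex replicate 1 (0.21, 0.0680), Dex replicate 3 (0.21, 0.0833) or vehicle replicate 2, the low library (0.12, 0.274). In GRko/ko the Sphk2 response differed from that of GRwt/wt of run 1 by −0.29 ± 0.093, just short of a call (adjusted p = 0.0501). This difference was called by DESeq2 (−0.28, 0.0461) and with at least 10 counts in every library (−0.28, 0.0461). It was also called when only these libraries were fitted (−0.28, 0.00766) and with GRwt/wt of both runs pooled (−0.26, 0.0245). Exons of Sphk2 share 912 bases with Dbp and Rpl18 on the opposite strand, and the strand setting of the counting is not given in the sources used here.

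The ratio of the kinases was compared per kilobase of exon. Per kilobase, Sphk1 was at 0.995 ± 0.105 (SD, n = 3) of the Sphk2 level with vehicle and at 2.91 ± 0.0721 with Dex in GRwt/wt of run 1, and at 0.328 ± 0.0128 and 1.24 ± 0.0339 in run 2. With Dex the ratio was 0.795 ± 0.0639 in GRL/L, 1.47 ± 0.176 in GRD/D, 1.66 ± 0.110 in GRD+L/D+L and 0.802 ± 0.0426 in GRko/ko. Dex libraries did not overlap vehicle libraries in GRwt/wt of either run or in the 3 point mutants, whereas in GRko/ko vehicle libraries reached 0.761 and Dex libraries began at 0.755.

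**Figure D2:**
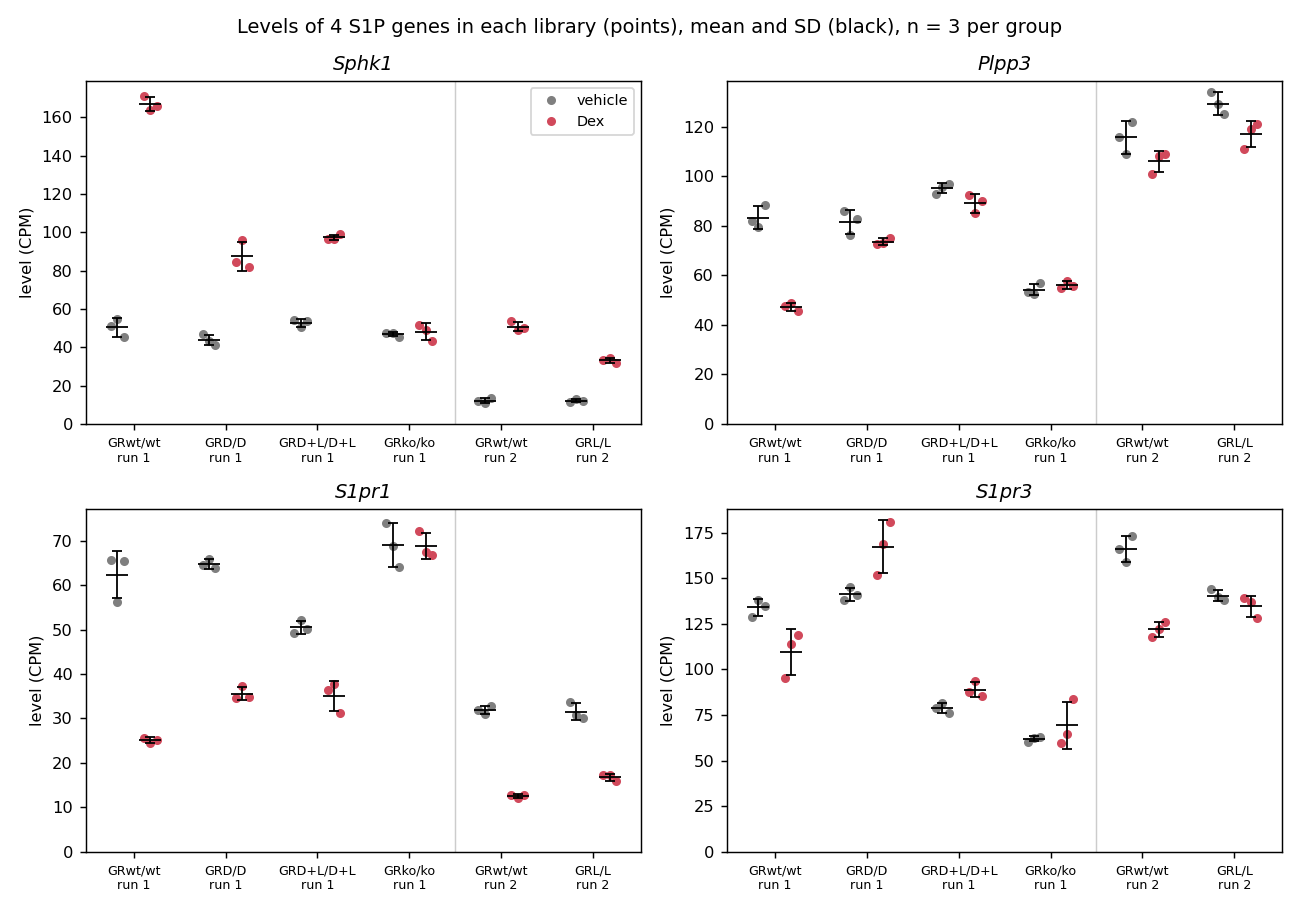
Levels in CPM (y axis, from 0) of Sphk1, Plpp3, S1pr1 and S1pr3 in every library, by genotype and run (x axis), with vehicle in grey and Dex in red; black bars are the mean and SD of 3 libraries. Sphk1 with Dex sits between 164 and 171 CPM in GRwt/wt of run 1 and between 43.2 and 51.9 CPM in GRko/ko, and Plpp3 falls clearly in GRwt/wt of run 1, to 45.6 to 48.8 CPM.

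Among the genes that remove S1P, Plpp3 fell in GRwt/wt cells of run 1 and much less in any other group. This ecto-phosphatase also acts on lysophosphatidic acid. In GRwt/wt of run 1 it was at 81.8, 79.6 and 88.5 CPM with vehicle and at 47.5, 48.8 and 45.6 CPM with Dex, a log2 fold change of −0.82 ± 0.055 (adjusted p = 2.12e-14). GRwt/wt of run 2 was at 116, 109 and 122 CPM with vehicle and at 101, 108 and 109 CPM with Dex. These groups met at 109 CPM and the log2 fold change was −0.12 ± 0.049 (adjusted p = 0.0476). The difference between the runs of GRwt/wt was 0.69 ± 0.073 (adjusted p = 1.07e-08) and was called in every alternative other than a fold limit. When GRwt/wt of both runs were fitted together, with a common response, the value was −0.44 (adjusted p = 3.75e-06).

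The small Plpp3 change of run 2 depended on the fit. It was lost without GRwt/wt Dex replicate 4 (−0.088, adjusted p = 0.238), Dex replicate 5 (−0.14, 0.0585), vehicle replicate 4 (−0.12, 0.108) or vehicle replicate 6 (−0.085, 0.252), and in 6 other alternatives (adjusted p between 0.0674 and 0.205). GRL/L was at 134, 129 and 125 CPM with vehicle and at 111, 119 and 121 CPM with Dex (−0.15 ± 0.048, adjusted p = 0.0279). This call was lost without Dex replicate 1 (−0.11, 0.181), vehicle replicate 1 (−0.12, 0.140) or vehicle replicate 2 (−0.15, 0.0599), and in 4 other alternatives, with 0.322 with GRwt/wt of both runs pooled.

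In the other mutants of run 1 Plpp3 was not called. GRD/D was at 85.8, 76.3 and 82.6 CPM with vehicle and 72.5, 73.2 and 75.1 CPM with Dex (−0.15 ± 0.053, adjusted p = 0.0648, and −0.19, 0.0277, without vehicle replicate 2). GRD+L/D+L was at 92.8, 95.8 and 96.7 CPM with vehicle and 92.4, 85.0 and 89.9 CPM with Dex (−0.094 ± 0.052, 0.433), and GRko/ko was at 52.6 to 56.9 CPM and 54.7 to 57.6 CPM (0.049 ± 0.055, 0.962). Against GRwt/wt of run 1 the response was higher by 0.67 ± 0.076 in GRD/D (adjusted p = 7.12e-08), 0.72 ± 0.076 in GRD+L/D+L (1.08e-08) and 0.87 ± 0.078 in GRko/ko (1.08e-10). With GRwt/wt of both runs pooled these differences were 0.29 (adjusted p = 0.172), 0.34 (0.0750) and 0.49 (0.00535). In GRL/L against GRwt/wt of run 2 the difference was −0.022 ± 0.069 (adjusted p = 0.947).

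Sgpl1, the lyase and the most abundant of the 9 transcripts per kilobase in run 1, fell slightly in run 2. GRwt/wt of run 2 was at 224, 231 and 219 CPM with vehicle and at 165, 191 and 188 CPM with Dex, without overlap (log2 fold change −0.31 ± 0.041, adjusted p = 1.22e-07, and −0.20, 1.42e-05, with GRwt/wt of both runs pooled). GRL/L was at 242, 244 and 235 CPM with vehicle and at 209.9, 217 and 218 CPM with Dex (−0.16 ± 0.041, adjusted p = 0.00390). GRwt/wt of run 1 was at 294 to 301 CPM and 277 to 281 CPM (−0.091 ± 0.041, 0.154). The response in GRwt/wt was lower in run 2 than in run 1 by −0.22 ± 0.058 (adjusted p = 0.0135). This call was lost without GRwt/wt run 2 Dex replicate 4 (−0.16, 0.0607) or run 2 vehicle replicate 5 (−0.20, 0.0502), with no filter on low counts (−0.23, 0.0582) and when only the GRwt/wt libraries were fitted (−0.22, 0.105). Sgpp1, the S1P phosphatase of the endoplasmic reticulum, was called in no Dex comparison, with log2 fold changes between −0.15 and 0.045.

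Spns2, the S1P exporter, was near the limit of detection, with 13 to 60 counts per library. Its levels in GRwt/wt of run 1 were 1.62, 1.71 and 1.82 CPM with vehicle and 2.72, 3.24 and 2.21 CPM with Dex. The groups did not overlap, but the log2 fold change of 0.66 ± 0.27 was not called by edgeR (adjusted p = 0.110). It was called when only these libraries were fitted (0.65, 0.0426) and without the GRko/ko libraries (0.66, 0.0437). Run 2 gave 0.25 ± 0.24 (adjusted p = 0.463), with an approximate 95% interval from −0.22 to 0.72. In GRko/ko the Spns2 response differed from that of GRwt/wt of run 1 by −1.15 ± 0.42 and was not called (adjusted p = 0.0861). This difference was called with no filter on low counts (−1.15, 0.0417) and without GRko/ko vehicle replicate 1 (−1.36, 0.0456) or 2 (−1.44, 0.0213). Exons of Spns2 share 131 bases with Mybbp1a on the opposite strand, which had up to 7490 counts.

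S1pr1, the Gi-coupled receptor known for lymphocyte egress and vascular integrity, was the receptor with the largest fall. In GRwt/wt of run 1 it was at 65.6, 56.2 and 65.4 CPM with vehicle and at 25.7, 24.4 and 25.1 CPM with Dex. Run 2 had 31.9, 31.1 and 32.7 CPM with vehicle and 12.8, 12.0 and 12.8 CPM with Dex. The log2 fold change was −1.32 ± 0.067 (adjusted p = 7.28e-18) in run 1 and −1.35 ± 0.069 (2.89e-18) in run 2, with a difference of −0.029 ± 0.10 (adjusted p = 0.927) and an approximate 95% interval from −0.22 to 0.16. The endothelial marker sum, mostly Flt1, was higher with Dex, from 204 to 249.6 CPM to 252 to 257 CPM in run 1 and from 85.2 to 92.6 CPM to 112 to 133 CPM in run 2. A sum carried mostly by a single gene does not measure endothelial cells, and its relation to the S1pr1 change was not tested.

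In the point mutants S1pr1 fell less. GRL/L was at 33.7, 30.8 and 30.0 CPM with vehicle and at 17.3, 17.2 and 15.9 CPM with Dex (−0.91 ± 0.066, adjusted p = 1.39e-13). GRD/D was at 64.6, 66.0 and 63.8 CPM with vehicle and at 34.7, 37.2 and 34.8 CPM with Dex (−0.86 ± 0.064, adjusted p = 9.18e-13). GRD+L/D+L was at 49.3, 52.1 and 50.1 CPM with vehicle and at 36.3, 37.7 and 31.3 CPM with Dex (−0.52 ± 0.065, adjusted p = 3.21e-07). Vehicle and Dex libraries did not overlap in any of the 3. GRko/ko was at 64.2 to 74.1 CPM with vehicle and at 66.8 to 72.1 CPM with Dex (−0.0053 ± 0.059, adjusted p = 0.999).

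Each of these responses was smaller than that of GRwt/wt of the same run, by 0.44 ± 0.10 in GRL/L (adjusted p = 0.00770), 0.45 ± 0.092 in GRD/D (0.00147), 0.79 ± 0.094 in GRD+L/D+L (1.51e-07) and 1.31 ± 0.089 in GRko/ko (9.70e-14) on the log2 scale. All 4 differences were called in every alternative other than a fold limit. As shares of the GRwt/wt log2 fold change, GRL/L had 67.5%, GRD/D 65.6% and GRD+L/D+L 39.8%. S1pr1 was the gene of the 9 that differed most between GRD+L/D+L and GRD/D, by 0.34 ± 0.091, and this was not called (adjusted p = 0.136).

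S1pr3, a receptor coupled to Gi, Gq and G12/13, changed direction between genotypes. In GRwt/wt of run 1 it was at 129, 138 and 135 CPM with vehicle and at 95.1, 114 and 119 CPM with Dex (−0.30 ± 0.076, adjusted p = 0.00561), a call lost without Dex replicate 1, the lowest library (−0.21, 0.0989). Run 2 had 166, 159 and 173 CPM with vehicle and 118, 122 and 126 CPM with Dex (−0.44 ± 0.073, adjusted p = 7.12e-06). In GRD/D it was at 138, 145 and 141 CPM with vehicle and at 152, 169 and 181 CPM with Dex, higher in all 3 Dex libraries (0.24 ± 0.075, adjusted p = 0.0258). The GRD/D call was lost without Dex replicate 2 (0.24, 0.0863), Dex replicate 3 (0.19, 0.169) or vehicle replicate 1 (0.23, 0.0720), and when only the GRD/D libraries were fitted (0.25, 0.0663).

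In GRD+L/D+L S1pr3 was at 79.0, 81.4 and 75.9 CPM with vehicle and at 87.7, 93.7 and 85.4 CPM with Dex (0.18 ± 0.080, adjusted p = 0.284), called when only its own libraries were fitted (0.17, 0.00542). GRL/L was at 144, 139.6 and 138 CPM with vehicle and at 139, 137 and 128 CPM with Dex (−0.063 ± 0.073, adjusted p = 0.634). GRko/ko was at 60.4, 62.3 and 63.2 CPM with vehicle and at 59.5, 64.7 and 83.8 CPM with Dex (0.16 ± 0.081, adjusted p = 0.899). Without Dex replicate 3, the highest, its log2 fold change was 0.0060. That library also had 14.1 CPM of Xist against 1.03 to 1.97 CPM in the other 5 GRko/ko libraries.

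Against GRwt/wt of the same run the S1pr3 response was higher by 0.54 ± 0.11 in GRD/D (adjusted p = 0.00102), 0.47 ± 0.11 in GRD+L/D+L (0.00736), 0.46 ± 0.11 in GRko/ko (0.00522) and 0.38 ± 0.10 in GRL/L (0.0439). The GRko/ko difference was 0.30 (adjusted p = 0.0445) without GRko/ko Dex replicate 3. The GRL/L difference was lost without any of GRL/L Dex replicates 1 and 2, GRL/L vehicle replicates 1, 2 and 3, GRwt/wt Dex replicates 4 and 5 and GRwt/wt vehicle replicates 4, 5 and 6 (between 0.35 and 0.41, adjusted p between 0.0570 and 0.116), and with GRwt/wt of both runs pooled (0.31, 0.143).

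S1pr2, the receptor best known for inhibiting cell migration through G12/13, fell modestly in run 2. GRwt/wt of run 2 was at 92.1, 92.2 and 94.8 CPM with vehicle and at 77.3, 79.8 and 80.1 CPM with Dex (−0.23 ± 0.037, adjusted p = 4.59e-06). GRL/L was at 98.0, 97.5 and 91.1 CPM with vehicle and at 81.9, 81.0 and 81.6 CPM with Dex (−0.23 ± 0.037, adjusted p = 1.01e-05). The difference between them was 0.0044 ± 0.053 (adjusted p = 0.992), with an approximate 95% interval from −0.10 to 0.11. In run 1 the values were −0.11 ± 0.039 in GRwt/wt (adjusted p = 0.0685, and 0.0486 with at least 10 counts required in every library), −0.046 ± 0.039 in GRD/D (0.509) and 0.016 ± 0.040 in GRD+L/D+L (0.937). The difference between the runs of GRwt/wt was −0.13 ± 0.054 and was not called (adjusted p = 0.176).

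The mix of the receptors was also compared. S1pr1 made up 32.6% ± 2.34 (SD, n = 3) of the summed receptor level per kilobase with vehicle and 18.7% ± 1.49 with Dex in GRwt/wt of run 1, and 17.7% ± 0.158 and 9.94% ± 0.420 in run 2. In GRD/D it went from 32.5% ± 0.290 to 19.1% ± 1.08, in GRD+L/D+L from 37.4% ± 0.708 to 27.6% ± 1.24 and in GRL/L from 19.2% ± 0.602 to 12.0% ± 0.186. In GRko/ko it was 47.8% ± 2.12 with vehicle and 46.1% ± 3.49 with Dex. The summed level itself fell from 62.7 ± 1.47 to 44.0 ± 2.57 CPM per kb in GRwt/wt of run 1 and from 59.3 ± 1.99 to 41.4 ± 1.06 CPM per kb in run 2. In GRD/D it was 65.5 ± 1.35 with vehicle and 61.4 ± 3.53 with Dex.

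**Figure D3:**
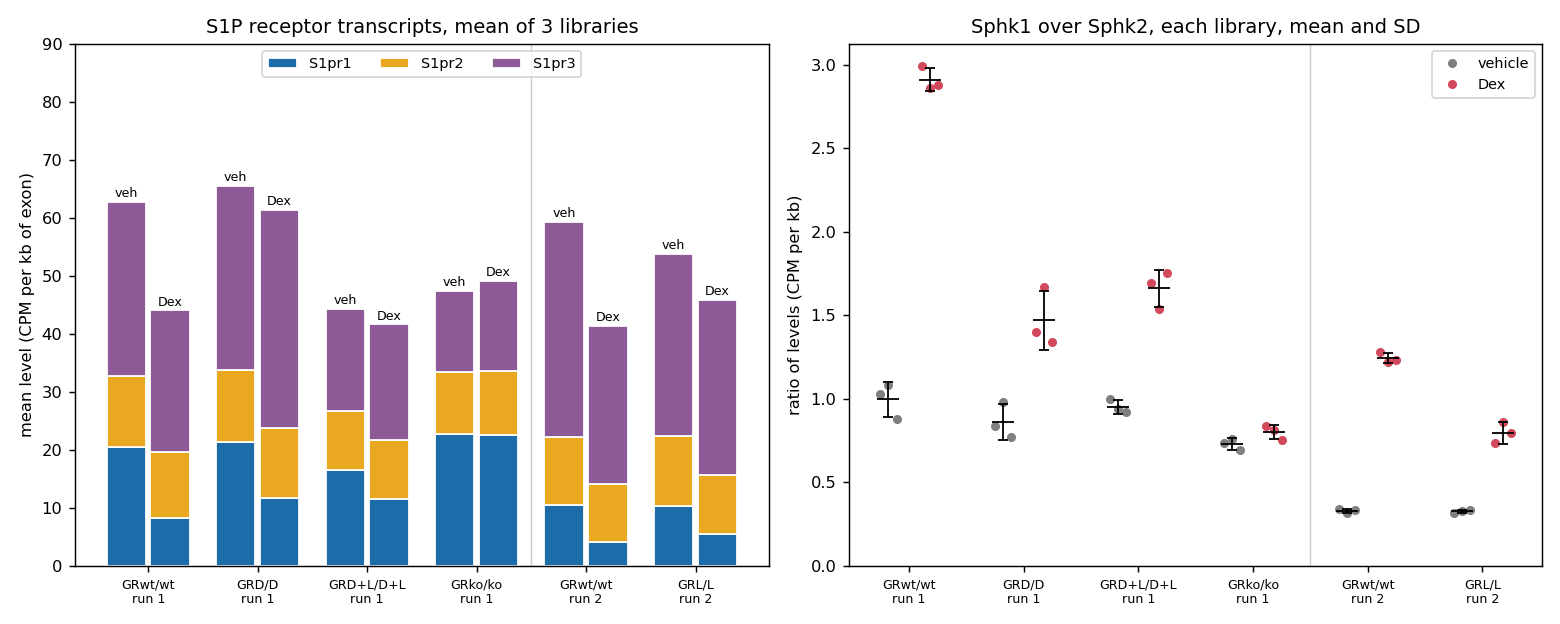
Left, the mean level of S1pr1, S1pr2 and S1pr3 transcripts in CPM per kb of exon (y axis), stacked, for each genotype and run (x axis) with vehicle (veh) and Dex. Right, the ratio of Sphk1 to Sphk2 per kb in every library, with mean and SD; it rises with Dex to 2.91 in GRwt/wt of run 1 and is 0.802 with Dex in GRko/ko.

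Counted over the 9 genes, the Dex response differed from that of GRwt/wt of the same run for 3 genes in GRL/L (2 higher, 1 lower, against 1.85% of all genes), 4 in GRD/D (3 higher, 1 lower, 3.29%), 4 in GRD+L/D+L (3 higher, 1 lower, 3.23%) and 4 in GRko/ko (3 higher, 1 lower, 8.48%). Sphk1 was the lower gene each time. In the run 1 genotypes the higher genes were Plpp3, S1pr1 and S1pr3, and in GRL/L they were S1pr1 and S1pr3. GRD/D, GRD+L/D+L and GRko/ko share the GRwt/wt libraries of run 1, so these counts are not independent of each other. For GRD+L/D+L against GRD/D no gene of the 9 was called by edgeR or by DESeq2 and 1 (S1pr1) had an unadjusted p under 0.05, against 0.0775% of all genes called by edgeR, 1600 genes with an unadjusted p under 0.05 and 40 called by DESeq2. Between the runs of GRwt/wt the response of 3 genes differed (2 higher in run 2, 1 lower, against 7.09% of all genes). These were Plpp3, Sgpl1 and Sphk1, the last by 0.32 ± 0.10 (adjusted p = 0.0414). The Sphk1 call was lost without GRwt/wt run 1 Dex replicate 1, 2 or 3, run 1 vehicle replicate 1 or 2, run 2 Dex replicate 4, or run 2 vehicle replicate 4 or 5 (between 0.26 and 0.33, adjusted p between 0.0515 and 0.168), and when only the GRwt/wt libraries were fitted (0.32, 0.0757).

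Vehicle levels of the S1P genes also differed between genotypes, most of all S1pr3. In GRD/D no gene of the 9 was called against GRwt/wt by edgeR, where 9.55% of all genes were, 1 gene (Sphk1) had an unadjusted p under 0.05 and DESeq2 called 1, Sphk1. Its log2 difference was −0.20 ± 0.070 (adjusted p = 0.0617, and 0.0303 by DESeq2). It was also called in 4 other alternatives (adjusted p between 0.0368 and 0.0437) and without GRD/D vehicle replicate 1 (−0.25, 0.0323) or GRwt/wt vehicle replicate 3 (−0.27, 0.0166). In GRL/L 2 genes were called, 1 higher and 1 lower, against 11.3% of all genes. In GRD+L/D+L 4 were called, 1 higher and 3 lower, against 29.9%. In GRko/ko 7 were called, 2 higher and 5 lower, against 45.7%. In the last pair of comparisons genotype cannot be told apart from embryo sex, nor in GRko/ko from strain. With vehicle, the macrophage marker sum was 197 to 349 CPM in GRwt/wt of run 1. It was lower in GRD+L/D+L (32.2 to 40.8 CPM) and higher in GRko/ko (2960.2 to 3292 CPM). The cartilage sum was 18.6 to 20.9 CPM in GRwt/wt of run 1, 25.4 to 27 CPM in GRD+L/D+L and 178 to 505 CPM in GRko/ko. The part of these sums in the vehicle differences was not tested.

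S1pr3 with vehicle was at 129 to 138 CPM in GRwt/wt of run 1, 138 to 145 in GRD/D, 75.9 to 81.4 in GRD+L/D+L and 60.4 to 63.2 in GRko/ko. The last pair lay below every other vehicle library, with log2 differences of −0.77 ± 0.078 in GRD+L/D+L (adjusted p = 6.87e-10) and −1.11 ± 0.079 in GRko/ko (1.35e-14). In GRL/L it was lower by −0.24 ± 0.072 (adjusted p = 0.0253), a call lost without GRL/L vehicle replicates 1, 2 or 3 or GRwt/wt vehicle replicates 4 or 6 (between −0.26 and −0.21, adjusted p between 0.0508 and 0.116) and with GRwt/wt of both runs pooled (−0.20, 0.0516).

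The other receptors differed less. S1pr2 was lower in GRD+L/D+L by −0.27 ± 0.040 (adjusted p = 1.74e-06) and in GRko/ko by −0.17 ± 0.039 (0.000362). S1pr1 was lower in GRD+L/D+L by −0.31 ± 0.062 (adjusted p = 0.000193) and higher in GRko/ko by 0.15 ± 0.060 (0.0464). The GRko/ko and GRwt/wt libraries overlapped, at 64.2 to 74.1 CPM against 56.2 to 65.6 CPM. That call was lost without GRko/ko vehicle replicate 1 (0.088, 0.306), GRko/ko vehicle replicate 2 (0.14, 0.0895) or GRwt/wt vehicle replicate 2 (0.070, 0.402), and in 4 other alternatives (adjusted p between 0.0633 and 0.139). The summed receptor level with vehicle was 44.3 ± 1.20 CPM per kb in GRD+L/D+L and 47.4 ± 1.29 in GRko/ko, against 62.7 ± 1.47 in GRwt/wt of run 1.

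Of the enzymes, Plpp3 with vehicle was lower in GRko/ko, at 52.6 to 56.9 CPM against 79.6 to 88.5 CPM in GRwt/wt (−0.62 ± 0.054, adjusted p = 3.54e-12). It was higher in GRD+L/D+L by 0.19 ± 0.052 (adjusted p = 0.00474, and 0.05 with a value of 0.15 without GRwt/wt vehicle replicate 2, which ended the call, and 0.36, 0.00184, with GRwt/wt of both runs pooled). It was also higher in GRL/L by 0.16 ± 0.048 (adjusted p = 0.0219), a call lost without GRL/L vehicle replicate 1 (0.14, 0.129) or 2 (0.17, 0.0529), GRwt/wt vehicle replicate 4 (0.17, 0.0544) or 5 (0.12, 0.173), and in 4 other alternatives, with 0.0014 with GRwt/wt of both runs pooled. Sgpp1 was lower in GRko/ko by −0.43 ± 0.068 (adjusted p = 1.84e-06), from 37.6 to 43.3 CPM in GRwt/wt to 27.9 to 32.0 CPM. Sgpl1 was lower there by −0.16 ± 0.041 (adjusted p = 0.00125) and Sphk2 higher by 0.34 ± 0.066 (4.65e-05). Sphk1 with vehicle did not pass the test in GRko/ko (−0.10 ± 0.070, adjusted p = 0.242), GRD+L/D+L (0.070 ± 0.069, 0.487) or GRL/L (−0.0039 ± 0.083, 0.988). Spns2 was not called in any genotype (−0.089 ± 0.30 in GRko/ko, adjusted p = 0.840), but in GRko/ko it was −0.77 (0.0337) without vehicle replicate 3, its highest library. Sgpp1 in GRD+L/D+L (−0.16 ± 0.068, 0.0671) was called without GRwt/wt vehicle replicate 3 (−0.21, 0.0353) and in 3 other alternatives.

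**Figure D4:**
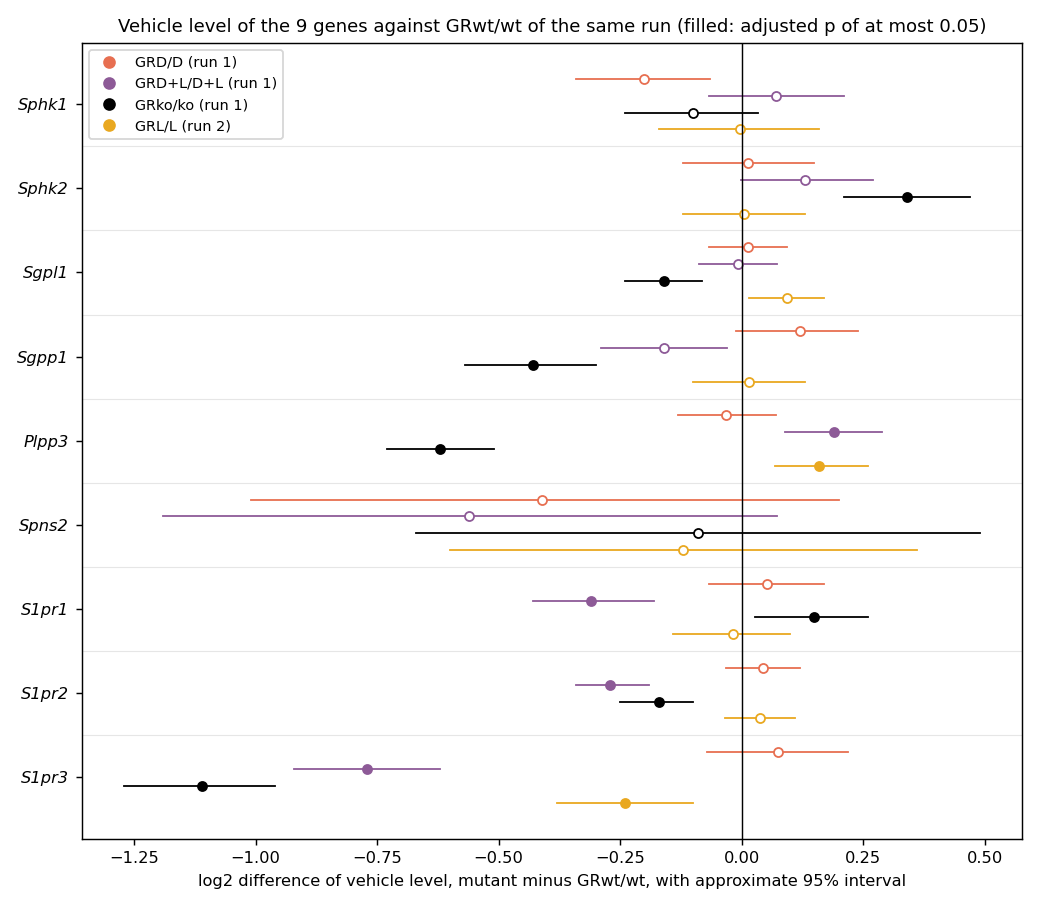
Log2 differences of the vehicle level (x axis) between each mutant and GRwt/wt of the same run for each of the 9 genes (rows), with approximate 95% intervals; filled points have an adjusted p of at most 0.05. S1pr3 lies farthest to the left, at −1.11 in GRko/ko and −0.77 in GRD+L/D+L, and no GRD/D point is filled.

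The wider sphingolipid pathway was read from 6 lists with 58 genes, of which 47 were tested. In GRwt/wt of run 1, 6 of the 47 were called with Dex (5 higher, 1 lower), and in GRwt/wt of run 2, 22 (13 higher, 9 lower). GRL/L had 15 called (10 higher, 5 lower), GRD/D 10 (4 higher, 6 lower) and GRD+L/D+L 6 (5 higher, 1 lower). Against the shares of all genes given above, the lists stood at 12.8% in GRwt/wt of run 1 (13.9% of all genes), 46.8% in run 2 (31.6%), 31.9% in GRL/L (19.1%), 21.3% in GRD/D (11.9%) and 12.8% in GRD+L/D+L (5.00%). In run 1 of GRwt/wt the share was thus no higher than that of all genes.

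Of the other genes of S1P metabolism, transport and sensing, 5 of 10 were tested and 1 was called in run 1 and 3 in run 2. Plpp1, a lipid phosphate phosphatase related to Plpp3, rose from 54.0 to 64.1 CPM with vehicle to 79.0 to 81.4 CPM with Dex in GRwt/wt of run 1 (0.42, adjusted p = 7.52e-07) and by 0.64 in run 2 (4.66e-12). It also rose in GRL/L (0.70, 1e-12), GRD/D (0.48, 8.78e-08) and GRD+L/D+L (0.40, 3.84e-06). In run 2 the transporters Abca1 (−0.60, 1.44e-05) and Abcc1 (−0.36, 4.67e-06) fell.

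Of 13 ceramide synthesis genes tested, 2 were called in run 1 (15.4%) and 4 in run 2 (30.8%), shares near those of all genes. The ceramide synthases Cers4 (0.22, adjusted p = 0.0356, and 0.26, 0.00203) and Cers6 (0.18, 0.0115, and 0.17, 0.00718) rose in both runs of GRwt/wt, while in GRD/D Cers6 fell (−0.33, 1.67e-05). In run 2 the ketodihydrosphingosine reductase Kdsr rose (0.34, 1.90e-06) and the synthase Cers2 fell (−0.16, 0.00323).

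Of 9 genes of ceramide turnover, 1 was called in run 1 (11.1%, against 13.9% of all genes) and 4 in run 2 (44.4%, against 31.6%). Ugcg, which makes glucosylceramide, fell in GRwt/wt of both runs (−0.31, adjusted p = 3.05e-06, and −0.74, 3.88e-16), in GRL/L (−0.59, 4.90e-13), in GRD/D (−0.43, 5.69e-09) and in GRD+L/D+L (−0.18, 0.0148). The alkaline ceramidases Acer2 (0.68, 0.0165) and Acer3 (0.31, 0.000147), which release sphingosine, rose in run 2.

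Of the 7 genes of the sphingomyelin cycle, 1 was called in run 1, higher (14.3%, against 13.9% of all genes). In run 2, 6 were called, 4 higher and 2 lower (85.7%, against 31.6%). The sphingomyelin synthase Sgms1 rose from 52.4 to 55.0 CPM to 70.5 to 74.4 CPM in GRwt/wt of run 1 (0.44, adjusted p = 5.95e-10) and by 0.35 in run 2 (3.24e-08). The neutral sphingomyelinase Smpd3 rose in run 2 from 1.06 to 1.41 CPM to 3.92 to 4.44 CPM (1.82, 2.83e-08). In run 1 it was at 0.779 to 1.99 CPM and 1.78 to 2.48 CPM (0.83, 0.0739), and it rose in all 3 point mutants (1.23 to 1.68, adjusted p between 2.28e-07 and 2.62e-05).

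Of 6 genes of the LPA branch tested, 1 was called in run 1 (16.7%) and 2 in run 2 (33.3%), shares near those of all genes. The LPA receptor Lpar1 rose in GRwt/wt of run 1 (0.44, adjusted p = 2.60e-07) and run 2 (0.64, 1.13e-12) and in GRL/L (0.38, 3.82e-07), and fell in GRD/D (−0.18, 0.0442). Lpar4 rose in run 2 (0.47, 2.58e-05). Among the 7 G protein alpha subunits, 0 were called in GRwt/wt of run 1, against 13.9% of all genes. In run 2 Gnai1 (−0.41, 9.89e-07), Gnaq (−0.28, 1.96e-05) and Gnai3 (−0.11, 0.0462) fell (42.9%, against 31.6% of all genes).

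For the 4 S1P genes called with Dex in GRwt/wt of both runs, the genes with the most similar pattern were found by Pearson's r over the 12 group means of log2 CPM, each less the mean of its run. Sphk1 was most like Csrnp1 (r = 0.994), Agfg2 (0.988) and Dlk2 (0.984), and S1pr1 most like Csrnp2 (0.987), Itgb3 (0.983) and Hspa13 (0.968). Plpp3 was most like Fundc1 (0.967), Jade1 (0.957) and Pex5 (0.947), and S1pr3 most like Slc2a5 (0.972), Rrbp1 (0.971) and Ddx43 (0.965). The 12 means share libraries and genotypes, so r is a description. Rrbp1 followed the S1pr3 pattern through its levels between genotypes, with a Dex log2 fold change of 0.0061 in GRwt/wt of run 1. Fundc1 (−0.19 and −0.043) and Pex5 (−0.20 and −0.046) also changed little with Dex in GRwt/wt of runs 1 and 2. Slc2a5 (0.0752 to 4.22 CPM over all libraries) and Ddx43 (0 to 1.28 CPM) were at low levels.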

How the data were processed

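RNA-seq counts per gene were deposited as 1 table of raw counts for 36 libraries. The authors made these counts from reads aligned with HISAT2 2.1.0 to mm10 and assigned with featureCounts 2.0.0, per the submitters' processing notes; the annotation and the strand setting are not given in the sources used here. Total counts were 15280166 to 28662608 per library. Symbols were matched for 55141 of 55487 gene identifiers from a table of names, and for 55227 with GENCODE M21, which also gave exon lengths for levels per kb. Pairs of libraries within a group differed by 1.40 to 7.24 times the sampling noise (36 pairs), so none was a copy of another. This cannot show that they came from separate embryos, and the libraries of each group were of the same sex. They were counted separately because the methods describe different mice. If the libraries of a group shared a culture, the p-values would reflect only the spread within that culture.

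The 15489 genes that passed filterByExpr were fitted with edgeR 4.0.16 (R 4.3.3, limma 3.58.1) by the quasi-likelihood test, with TMM scaling and 12 group means. This differs from the study's formula, which pools GRwt/wt of both runs, so that each mutant could be compared within its run. Dex responses, their differences (interactions) and vehicle levels gave 16 comparisons, each adjusted by Benjamini-Hochberg over all genes at 0.05. SE was approximated as the absolute log2 fold change over the root of F, and 95% intervals as 1.96 SE to either side, so both are approximate. Per the methods, cultures came from different mice, and n was 3 per group.

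Alternatives were DESeq2 1.42.0, its size factors, other filters, the study's formula and its fold limit, fewer libraries in the fit, a replicate block, and each library left out. The fit was tested on simulated data. All 9 genes were named; pathway genes were named if called in GRwt/wt of both runs in the same direction or with the largest changes among those called, up to 4 a list, and similar genes by Pearson's r. The genes and lists were chosen with earlier results of these data known. Promoters are from RefSeq.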

Additional observations from a re-analysis of the deposited data

Results flagged for a closer look

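Each value here is a difference of Dex responses on the log2 scale that was itself tested, as an interaction (edgeR, adjusted p over all genes of at most 0.05). For Sphk1 the response was lower than in GRwt/wt of the same run by −0.61 in GRL/L, −0.73 in GRD/D, −0.85 in GRD+L/D+L and −1.70 in GRko/ko. For S1pr1, which fell with Dex, the difference was 0.44 in GRL/L, 0.45 in GRD/D, 0.79 in GRD+L/D+L and 1.31 in GRko/ko. For S1pr3 it was 0.38 in GRL/L, 0.54 in GRD/D, 0.47 in GRD+L/D+L and 0.46 in GRko/ko. For Plpp3 it was 0.67 in GRD/D, 0.72 in GRD+L/D+L and 0.87 in GRko/ko. Between GRwt/wt of run 2 and of run 1 the response differed by 0.32 for Sphk1, −0.22 for Sgpl1 and 0.69 for Plpp3.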

How the results depend on the processing

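Of 52 called values of the 9 genes, and leaving the fold limit aside, 38 were called under every alternative, 14 were lost under at least 1, and 0 changed sign. Of 92 values not called, 18 were called under at least 1 alternative. Of the counts of genes called, a required log2 fold change of at least 1 left 2 in GRwt/wt of run 1, 2 in run 2, 1 in GRL/L, 0 in GRD/D and 0 in GRD+L/D+L for Dex. The count for GRD/D turns on Sphk1, which lay at the limit. Its value by edgeR rounds to 1.00 but fell just short, and by DESeq2 it was 1.01. For the differences from GRwt/wt the limit left 0 in GRL/L, 0 in GRD/D, 0 in GRD+L/D+L and 2 in GRko/ko, and 0 between runs. For vehicle it left 0 in GRL/L, 0 in GRD+L/D+L and 1 in GRko/ko. Shares of all genes at this limit are not given here. The study's formula, which pools GRwt/wt of both runs, gave 7 for Dex in GRwt/wt, 7 for the GRko/ko difference and 1 for vehicle in GRL/L. Of all 15489 genes it called 5207 for Dex in GRwt/wt, where the main fit called 2159 in run 1 and 4901 in run 2. It called 2310 genes for the GRko/ko difference (main fit 1314) and 1944 for vehicle in GRL/L (main fit 1757). The gene of the 9 called for vehicle in GRL/L was Sgpl1 (0.15, adjusted p = 0.0247, edgeR), which the main fit did not call. Fitting only the libraries compared gave 2 for Dex in GRD/D, 1 between runs and 1 for vehicle in GRL/L. Of all genes, this fit called 693 of 13545 for Dex in GRD/D, where the main fit called 1838 of 15489. It called 803 of 15018 between runs (main fit 1098 of 15489) and 1503 of 15241 for vehicle in GRL/L (main fit 1757 of 15489). With no filter (1793 of 32584 genes called) or no GRko/ko libraries (1782 of 15301) the count for vehicle in GRL/L was also 1. In all of these fits for vehicle in GRL/L the gene was S1pr3. For vehicle in GRD/D, 4 fits each gave 1. They were no GRko/ko libraries (1395 of 15301 genes called), DESeq2 (1477 of 14287), its size factors (1440 of 15489) and a minimum of 10 counts (1195 of 11959). The cause of these changes was not tested. With 1 library left out, Dex counts were 3 to 4 and 5 to 6 in GRwt/wt of runs 1 and 2, 4 to 5 in GRL/L and 2 to 4 in GRD/D. The differences gave 2 to 3 in GRL/L, 4 to 5 in GRko/ko and 1 to 3 between runs, and vehicle 0 to 1 in GRL/L, 0 to 1 in GRD/D, 3 to 5 in GRD+L/D+L and 6 to 8 in GRko/ko. Shares of all genes are not given here for the fits with 1 library left out.

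With the replicate block the counts were 4, 5, 4, 4, 2 and 0 for Dex in GRwt/wt of runs 1 and 2, GRL/L, GRD/D, GRD+L/D+L and GRko/ko, and 1 for vehicle in GRD/D. In the same order, 2021, 4762, 2881, 1775, 739 and 0 of all 15489 genes were called for Dex, and 1499 for vehicle in GRD/D. Same-numbered vehicle and Dex libraries correlated at −0.161 to 0.236 over 18 pairs, 3 of them over 0.1 and 6 best with their own number, so the numbers were not taken to pair the samples. Depth limits Spns2 most, with 13 to 60 counts per library.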
